A study of Macaca mulatta with 18 samples.

Results

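The 5 genes described here code for the intermediate filament proteins of neurons: the light, medium and heavy neurofilament chains (NEFL, NEFM and NEFH), alpha-internexin (INA) and peripherin (PRPH). They were taken by name from an RNA-seq table of 22345 macaque genes, in which Ensembl identifiers were paired with gene symbols, and the rule, a list of names, applies no cut-off to measured values. All 5 had a value in every library and all 5 passed the filter on low values. The libraries came from wild type rhesus macaque fetal brain at embryonic day 84, with 3 RNA-seq libraries of tissue labelled CP and 3 of tissue labelled GZ. The labels do not spell out CP and GZ, which in studies of the fetal cortex commonly stand for cortical plate and germinal zone. Whether each library came from its own animal is not stated either, and a p-value here reflects variation among the 6 libraries only, part of which may be technical.

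Neurofilaments are ropes of coiled-coil proteins that fill the axon and support its calibre. NEFL can assemble by itself and is the core subunit, whereas NEFM and NEFH add long tails that are heavily phosphorylated in mature axons. In rodents, INA is made early in differentiating neurons and NEFH is made late, as axons mature. PRPH is best known from peripheral neurons and from neurons that project out of the brain and spinal cord. Dividing neural progenitors carry other intermediate filaments, chiefly vimentin and nestin.

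The 3 neurofilament chain genes were much higher in CP than in GZ. NEFL was 10.4-fold, NEFM 6.58-fold and NEFH 3.15-fold higher in CP. INA, the most abundant of the 5 in every library, was 1.16-fold higher in CP and did not pass the test, and PRPH was low in both tissues with overlapping values. Thus 3 of the 5 genes were called higher in CP and 0 were called higher in GZ, also at an unadjusted p under 0.05. Calls are at an adjusted p under 0.05 in limma, a linear model fitted to all 13460 genes with a mean log2 value of at least 0. Of those genes, 45.4% were called in either direction, 20.9% as higher in CP and 24.5% as higher in GZ. The tissues were sampled in bulk, so fewer cells of a type and less RNA per cell cannot be told apart.

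**Figure D1:**
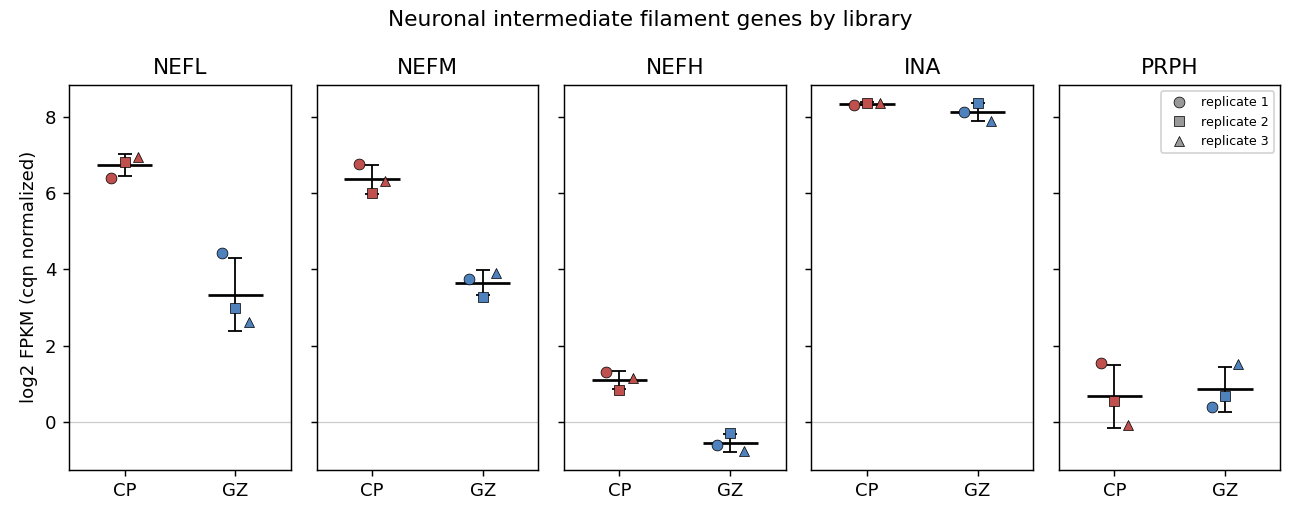
Log2 FPKM of each of the 5 genes in the 3 CP and 3 GZ libraries (points, by replicate), with the mean (line) and SD (bar). CP and GZ points are apart for NEFL, NEFM and NEFH, close together near 8 for INA, and intermixed for PRPH.

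NEFL, whose protein is the core of the filament, had log2 FPKM of 6.41, 6.81 and 6.96 in the CP libraries, against 4.42, 2.99 and 2.63 in the GZ libraries. FPKM counts fragments per unit of transcript length and sequencing depth, here after normalization by the authors. The tissues did not overlap, and GZ replicate 1 stood above the other GZ libraries. The difference was 3.38 ± 0.41 on the log2 scale (SE, limma adjusted p = 0.000659, n = 3 per tissue), with a 95% interval of 2.43 to 4.34. Without GZ replicate 1 the fold was 15.1 (limma adjusted p = 0.00011), and without both libraries numbered 1 it was 16.9 (limma adjusted p = 0.00139).

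NEFM, the medium chain, had log2 FPKM of 6.77, 6.0 and 6.33 in CP, against 3.76, 3.27 and 3.91 in GZ. The libraries of each tissue lay close together and the gap between the lowest CP and the highest GZ library was 2.09. NEFM differed by 2.72 ± 0.22 on the log2 scale (SE, limma adjusted p = 0.000118), with a 95% interval of 2.21 to 3.23. Of the 5 genes it had the smallest adjusted p.

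NEFH, the heavy chain, was far lower, at 1.32, 0.85 and 1.15 log2 FPKM in CP, against -0.59, -0.29 and -0.76 in GZ. All 3 CP libraries lay above 0 and all 3 GZ libraries below it. The difference was 1.66 ± 0.25 (SE, limma adjusted p = 0.00151), with a 95% interval of 1.09 to 2.23. At this low level the fold depends on the scale: with 1 FPKM added before the log it was 1.87 in place of 3.15, and the call was kept (limma adjusted p = 0.00168).

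INA, which joins the neurofilament chains in central neurons, had 8.32, 8.37 and 8.36 log2 FPKM in CP, against 8.13, 8.37 and 7.89 in GZ. The highest GZ library equalled the highest CP library to 2 decimals. The difference was 0.22 ± 0.11 (SE, limma adjusted p = 0.156), with an interval from 0.969-fold to 1.40-fold. Without GZ replicate 2 the difference was 0.34 and passed the test (limma adjusted p = 0.0263).

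PRPH had 1.54, 0.55 and -0.08 log2 FPKM in CP, against 0.39, 0.67 and 1.52 in GZ. The CP libraries held both the highest and the lowest value, so the tissues overlapped throughout. The difference was -0.19 ± 0.45 (SE, limma adjusted p = 0.761), and its 95% interval ran from 0.424-fold to 1.81-fold. Its sign turned without CP replicate 3 (0.18) or without GZ replicate 3 (0.14), and without both libraries numbered 1 the difference was -0.86, or 0.55-fold (limma adjusted p = 0.16). On the RefSeq assembly T2T-MMU8v2.0 the next protein-coding gene after PRPH is TROAP, which codes for a spindle protein and does not overlap it there. TROAP averaged 0.77 ± 0.36 log2 FPKM in CP and 3.34 ± 0.63 in GZ (SD, n = 3 each). NEFM and NEFL are also adjacent protein-coding genes on that assembly, on chromosome 8, and both were higher in CP.

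The CP and GZ libraries did not overlap for 3 of the 5 genes, each higher in CP. Over all genes tested the share without overlap was 56.4%, and 25.5% were without overlap and higher in CP. Ranked by the difference in favour of CP, NEFL was number 20, NEFM number 59 and NEFH number 343 of 13460 genes. INA stood at 4011 and PRPH at 8306. The median difference of all tested genes was -0.05 on the log2 scale. Called genes that were at least 2-fold higher in CP made up 7.04% of those tested, and NEFL, NEFM and NEFH were among them.

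**Figure D2:**
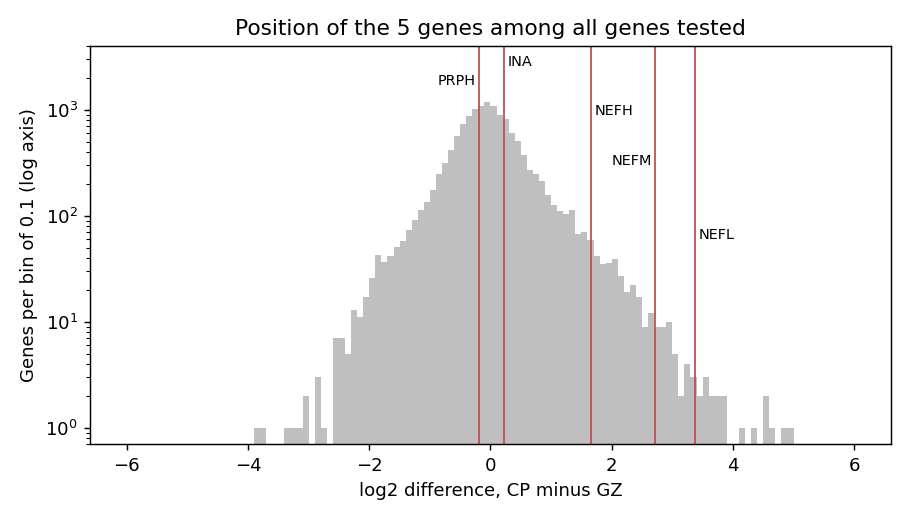
Histogram of the log2 difference, CP minus GZ, for the 13460 genes tested, with a logarithmic count axis and a red line for each of the 5 genes. NEFL (3.38), NEFM (2.72) and NEFH (1.66) lie in the right tail, and INA (0.22) and PRPH (-0.19) lie near the centre.

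Because FPKM is per transcript length, levels of the 5 genes can be set beside each other. The order also depends on the authors' correction for GC content and length and on the gene models, which were not checked. In CP the order of mean log2 level was INA (8.35 ± 0.03), NEFL (6.73 ± 0.29), NEFM (6.36 ± 0.39), NEFH (1.11 ± 0.24) and PRPH (0.67 ± 0.82, SD, n = 3). NEFL and NEFM overlapped in CP, and so did NEFH and PRPH. In GZ the order was INA (8.13 ± 0.24), NEFM (3.65 ± 0.33), NEFL (3.34 ± 0.95), PRPH (0.86 ± 0.59) and NEFH (-0.55 ± 0.24). There NEFM and NEFL overlapped, and every PRPH value lay above every NEFH value.

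Among the 22345 genes of the table, INA lay between the 99.1 and 99.4 percentile in all 6 libraries. NEFL lay between the 95.8 and 97.7 percentile in CP and between 55.8 and 76.7 in GZ. For NEFM the percentiles were 93.7 to 97.1 in CP and 62.3 to 70.0 in GZ. NEFH reached 44.1 to 46.8 in CP and 34.8 to 37.9 in GZ, below the middle of the table in both. PRPH ranged from 39.7 to 48.0 in CP and from 41.5 to 48.0 in GZ.

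The make-up of the filament transcripts differed accordingly. On the linear scale the 5 genes summed to 518, 509 and 536 FPKM in CP, against 316, 350 and 262 FPKM in GZ. INA made up 61.5%, 64.8% and 61.1% of that sum in CP, against 88.3%, 94.3% and 90.6% in GZ. No CP library came near a GZ library in this share, although the level of INA itself overlapped between the tissues.

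The NEFL share averaged 20.6% ± 3.67 in CP and 3.80% ± 2.57 in GZ (SD, n = 3 each). The NEFM share averaged 16.2% ± 4.37 in CP and 4.26% ± 1.49 in GZ. NEFH stayed below 1% in every library, at 0.417% ± 0.0639 in CP and 0.223% ± 0.0121 in GZ. Summed over the 3 neurofilament chains there were 0.616, 0.538 and 0.633 FPKM per FPKM of INA in CP, against 0.127, 0.0558 and 0.0919 in GZ. The mean of this ratio was 6.50-fold higher in CP (exact two-sided permutation p = 0.1, the smallest that 3 against 3 libraries allow).

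**Figure D3:**
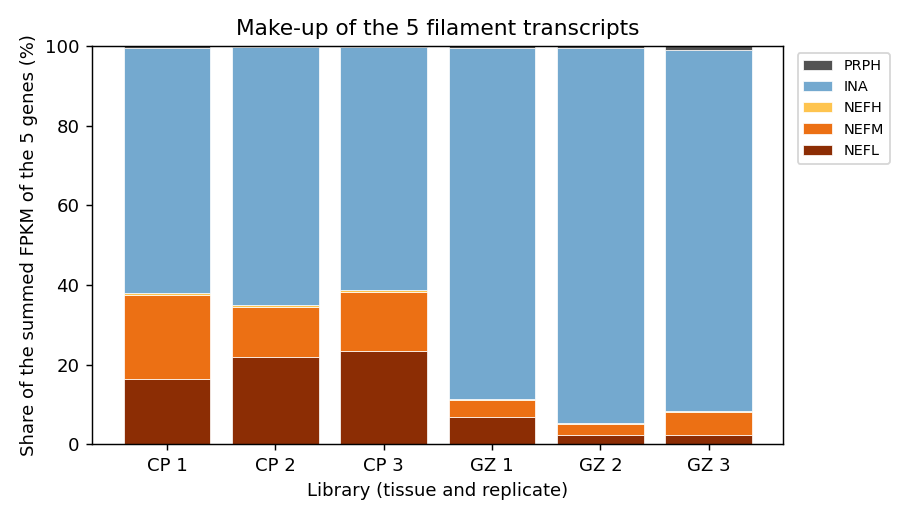
Share of each of the 5 genes in their summed FPKM (percent, linear scale) in the 3 CP and 3 GZ libraries, 1 bar per library. INA takes 61.1% to 64.8% in CP and 88.3% to 94.3% in GZ, and NEFL and NEFM take most of the rest.

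Whether the genes differed between tissues by different amounts was asked within each library, for all 10 pairs. A difference between 2 genes of the same library is unchanged when that library is scaled by 1 factor, but other normalization can change it. NEFL minus INA was -1.91, -1.56 and -1.39 on the log2 scale in CP, against -3.71, -5.38 and -5.26 in GZ. NEFM minus INA averaged -1.98 ± 0.41 in CP and -4.48 ± 0.56 in GZ (SD, n = 3 each). NEFH minus INA averaged -7.24 ± 0.26 in CP and -8.68 ± 0.04 in GZ. INA thus had the higher value in every library, by more in GZ than in CP for each of the 3 chains.

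Among the neurofilament chains themselves, NEFL minus NEFH was 5.09, 5.96 and 5.81 in CP, against 5.01, 3.28 and 3.39 in GZ. The tissues were apart, but CP replicate 1 and GZ replicate 1 nearly met. NEFM minus NEFH averaged 5.26 ± 0.16 in CP and 4.20 ± 0.57 in GZ, also without overlap. NEFL minus NEFM was -0.36, 0.81 and 0.63 in CP, against 0.66, -0.29 and -1.28 in GZ, with overlap (exact two-sided permutation p = 0.5). NEFH minus PRPH was -0.22, 0.30 and 1.23 in CP, against -0.98, -0.96 and -2.29 in GZ.

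Of the 10 pairs, 8 did not overlap between tissues, and each of these had the smallest possible p (exact two-sided permutation p = 0.1, 0.12 after Benjamini-Hochberg adjustment over the pairs). The other 2 pairs were NEFL with NEFM and INA with PRPH (exact p = 0.5 for each). With 3 libraries a tissue no pair could pass 0.05. The pairs share genes and are not independent of each other. Most of those without overlap set NEFL, NEFM or NEFH, each already apart between tissues alone, against INA or PRPH. These largely restate the results of the single genes. How often gene pairs in general lack overlap was not computed, and among single genes tested the share was 56.4%.

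Other neuronal genes put the size of these differences in context. The mean of 8 general neuron genes was 6.76 ± 0.10 log2 FPKM in CP and 6.39 ± 0.21 in GZ (SD, n = 3 each), a difference of 0.37. Their single differences ran from -0.65 for DCX to 1.24 for the synaptic vesicle gene SYP, so the mean joins genes of opposite direction. Of these 8 genes 4 were called higher in CP and 1, the RNA-binding protein gene ELAVL3, higher in GZ. The ELAVL3 call was lost in limma with no trend in the variance, without CP replicate 2, GZ replicate 2 or GZ replicate 3 and without both libraries numbered 1. The differences of the 8 genes ran from -0.65 to 1.24, and whether their mean follows the number of neurons was not tested. Set against that mean within each library, NEFL was 3.01 higher in CP on the log2 scale, NEFM 2.35 and NEFH 1.29. The CP and GZ libraries did not overlap for any of these 3 (exact two-sided permutation p = 0.1). All 3 genes were already without overlap before the mean was subtracted. The share of all genes without overlap on this measure was not computed. On the same measure INA differed by -0.15 (exact p = 0.6) and PRPH by -0.56 (exact p = 0.4).

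The other intermediate filament genes, from structural proteins of glia, epithelium and lens to the nuclear lamins, were called in both directions. Of 13 listed, 12 had a value and 10 passed the filter on low values, with 1 called higher in CP and 4 called higher in GZ. Over all genes tested the shares were 20.9% and 24.5%. The median difference of the listed genes was -0.06 on the log2 scale. Without GZ replicate 2 the counts were 0 in CP and 3 in GZ, and without CP replicate 1 or both libraries numbered 1 they were 0 and 4. Both B-type lamin genes, which code for the lining of the nucleus, were lower in CP. LMNB1 averaged 5.94 ± 0.18 in CP and 7.05 ± 0.23 in GZ, and LMNB2 averaged 4.96 ± 0.38 in CP and 6.09 ± 0.13 in GZ (limma adjusted p = 0.00061 and 0.00187). The A-type lamin gene LMNA averaged 4.80 ± 0.15 in CP and 5.11 ± 0.32 in GZ (limma adjusted p = 0.148).

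The progenitor filament gene NES (nestin) averaged 5.80 ± 0.37 in CP and 6.37 ± 0.19 in GZ. It fell by 0.56 on the log2 scale in CP (limma adjusted p = 0.0361), a call lost in 5 of 15 alternatives. SYNM (synemin), which builds filaments together with vimentin or desmin, was 1.49-fold higher in CP (limma adjusted p = 0.021), also lost in 5 of 15. VIM (vimentin) averaged 6.98 ± 0.14 in CP and was 6.78, 6.77 and 6.78 in GZ, and the glial gene GFAP 6.43 ± 0.28 in CP and 6.16 ± 0.04 in GZ. Neither passed (limma adjusted p = 0.0843 and 0.125).

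BFSP2, which codes for a beaded filament protein known from the eye lens, averaged -0.89 ± 0.42 in CP and 1.19 ± 0.05 in GZ (limma adjusted p = 0.000893). Its lens partner BFSP1 was 0.59 ± 0.10 in CP and -0.14 ± 0.62 in GZ and did not pass (limma adjusted p = 0.106). DES (desmin, of muscle) and KRT18 (a keratin of simple epithelium) lay below 0 in all 6 libraries and were not tested.

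**Figure D4:**
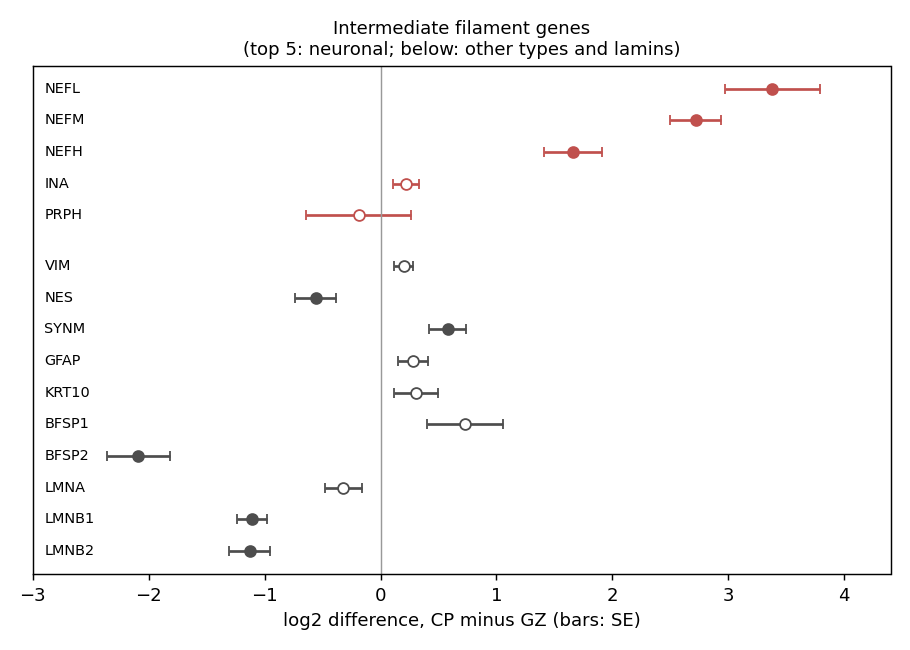
Log2 difference, CP minus GZ, with its SE for the 5 neuronal filament genes (red, top) and the 10 tested genes of other intermediate filament types (grey). Filled points passed at an adjusted p under 0.05: NEFL, NEFM, NEFH and SYNM to the right, NES, BFSP2, LMNB1 and LMNB2 to the left.

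Enzymes that modify or clear neurofilaments were higher in CP where they were called. Of 18 listed genes 13 were measured and tested, 5 were called in favour of CP and none in favour of GZ in limma, with a median difference of 0.26 and 2 genes higher in GZ at an unadjusted p under 0.05. Without CP replicate 3 the counts were 6 and 1, and without both libraries numbered 1 they were 3 and 0. Among all genes tested 20.9% were called in favour of CP and 24.5% in favour of GZ. CDK5, a kinase that phosphorylates neurofilament tails, averaged 4.32 ± 0.05 in CP and 3.74 ± 0.09 in GZ (limma adjusted p = 0.00215). Its activator CDK5R2 (p39) had 5.15, 5.01 and 5.22 log2 FPKM in CP, against 3.69, 3.63 and 3.74 in GZ, a 2.71-fold difference. The other activator, CDK5R1 (p35), named after its values were seen, had 8.15, 7.92 and 8.11 in CP, against 7.91, 8.01 and 8.14 in GZ (limma adjusted p = 0.745). So CDK5R2 was apart between tissues and CDK5R1, the more abundant, was not.

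UCHL1, a ubiquitin hydrolase abundant in neurons, was 1.92-fold higher in CP (limma adjusted p = 0.000677). MAPK3 (ERK1), which can phosphorylate NEFM and NEFH, averaged 5.31 ± 0.07 in CP and 5.02 ± 0.04 in GZ. It passed in limma (adjusted p = 0.0145), a call lost in 3 of 15 alternatives, 2 of which left out a single library (limma adjusted p = 0.0554 to 0.184 over the 3). The kinase gene GSK3B averaged 5.36 ± 0.16 in CP and 5.62 ± 0.09 in GZ (limma adjusted p = 0.0683). The chaperone gene CRYAB averaged 4.05 ± 0.64 in CP and 3.45 ± 0.54 in GZ (limma adjusted p = 0.2).

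Motors and linkers were called in both directions, as were all genes tested (20.9% higher in CP and 24.5% higher in GZ). Of 13 listed genes 11 were tested, with 4 calls in favour of CP, 2 in favour of GZ and a median difference of 0.10. Without GZ replicate 3 the limma counts were 3 and 0, as they were without both libraries numbered 1. Leaving out CP replicate 3 gave 4 and 0, leaving out GZ replicate 1 gave the same counts, and leaving out CP replicate 1 gave 3 and 1. KIF5A, a kinesin heavy chain that carries neurofilaments along axons, had 6.68, 6.75 and 6.67 log2 FPKM in CP, against 5.94, 5.94 and 6.13 in GZ, a 1.62-fold difference (limma adjusted p = 0.000431). KIF5C, also neuronal, was 1.72-fold higher in CP (limma adjusted p = 0.00209). KIF5B, the form found in most tissues, averaged 6.79 ± 0.17 in CP and 6.68 ± 0.11 in GZ (limma adjusted p = 0.406). MYO5A, a myosin that binds NEFL, was 1.87-fold higher in CP (limma adjusted p = 0.00154).

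The linker gene PLEC (plectin) passed as higher in CP by a narrow margin (limma adjusted p = 0.0492), and the call was lost in 8 of 15 alternatives. DST (dystonin), which ties filaments to actin and microtubules, averaged 6.46 ± 0.25 in CP and 6.89 ± 0.18 in GZ. DYNC1H1, the heavy chain of the motor for transport towards the cell body, averaged 7.35 ± 0.10 in CP and 7.63 ± 0.14 in GZ. Both were called higher in GZ (limma adjusted p = 0.0389 and 0.0367), and each call was lost in 6 of 15 alternatives. MACF1, a linker related to DST, averaged 6.95 ± 0.31 in CP and 7.27 ± 0.20 in GZ (limma adjusted p = 0.14).

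Partners in the axonal skeleton were mostly higher in CP. Of 14 genes, all tested, 11 were called in favour of CP and 1 in favour of GZ, with a median difference of 0.69 on the log2 scale. The shares over all genes tested were 20.9% and 24.5%. SPTBN4, the beta-IV spectrin of the axon initial segment, had 4.08, 4.58 and 3.97 log2 FPKM in CP, against 2.35, 2.04 and 1.79 in GZ, a 4.42-fold difference (limma adjusted p = 0.000235). ANK3, the ankyrin that anchors that spectrin, was 2.53-fold higher in CP (limma adjusted p = 0.00252). The growth cone gene GAP43 was 3.22-fold higher, the microtubule-associated protein genes MAP1A and MAPT (tau) 2.10-fold and 1.96-fold, and the ankyrin gene ANK2 1.91-fold.

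None of these 14 genes differed by as much as NEFM or NEFL. NFASC, an adhesion molecule of the initial segment, averaged 4.47 ± 0.35 in CP and 4.46 ± 0.67 in GZ (limma adjusted p = 0.985), and SPTAN1, the alpha-II spectrin, did not pass either (adjusted p = 0.112). TUBB3, a tubulin of young neurons named after its values were seen, was the gene higher in GZ, at 9.40 ± 0.08 in CP and 9.64 ± 0.04 in GZ (limma adjusted p = 0.0287). That call was lost in 7 of 15 alternatives.

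**Figure D5:**
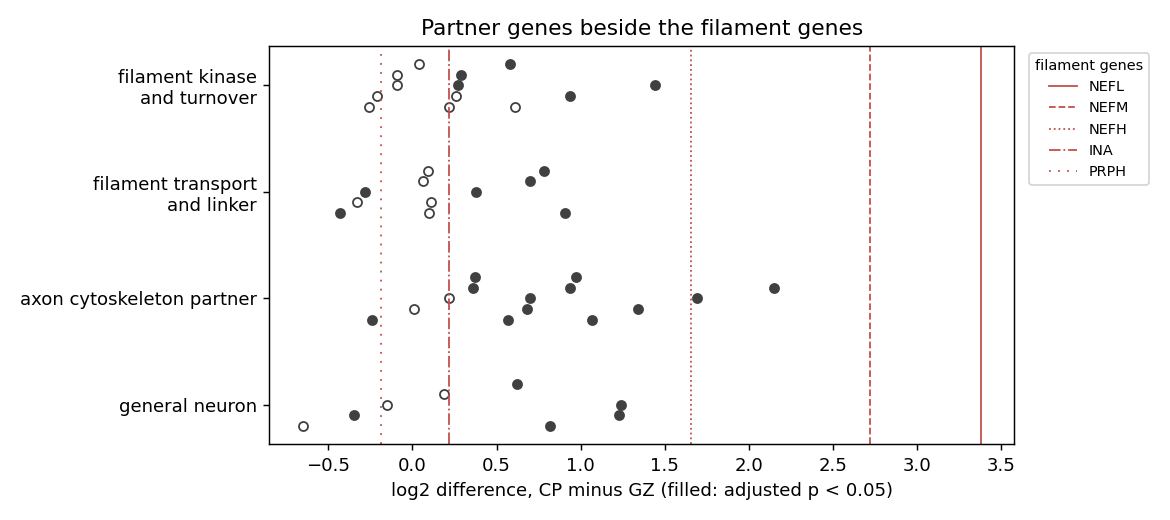
Log2 difference, CP minus GZ, for single genes (points, filled where adjusted p was under 0.05) of the lists of kinase and turnover, transport and linker, axon skeleton and general neuron genes, with red lines at the 5 filament genes. The largest partner difference, SPTBN4 at 2.15, lies between NEFH (1.66) and NEFM (2.72).

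Genes with the most similar profile over the 6 libraries were ranked by the root-mean-square distance after each gene was centred on its own mean. Closest to NEFL were CPNE7 (a copine, 0.32 on the log2 scale), CDH9 (a type II cadherin, 0.34) and C8H8orf34 (0.48). In CPNE7 and CDH9, as in NEFL, GZ replicate 1 was the highest GZ library, a likeness that choosing genes by profile favours. Closest to NEFM were the somatostatin receptor gene SSTR1 (0.14), the adenylyl cyclase gene ADCY1 (0.17) and FEZF2 (0.20), a transcription factor of subcortical projection neurons. FEZF2 had 4.34, 4.01 and 4.03 log2 FPKM in CP, against 1.63, 1.42 and 1.93 in GZ.

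Closest to NEFH were the nuclear receptor gene NR4A2 (0.13), DOC2B (0.14), a calcium sensor of vesicle release, and PRPS2 (0.15), an enzyme of nucleotide synthesis. INA had nearest genes with flat profiles, as this ranking favours for a gene with little difference: GOLT1B (0.04), UBE2D2 (0.04) and SH3BGRL (0.05). PRPH was closest to SLC47A2 (0.19), KIF19 (0.21) and CIBAR2 (0.22). Between members the distance was 0.63 for NEFM and NEFH, 0.75 for NEFL and NEFM and 1.06 for NEFL and NEFH. The nearest genes share libraries with the 5 genes, so these distances describe the libraries and carry no test.

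Marker lists of other cell types also differed between the tissues, and their part in the filament results was not tested. Beside the counts below, 20.9% of all genes tested were called higher in CP and 24.5% higher in GZ. Every one of the 8 measured vessel genes (endothelium and pericytes) was called higher in CP, with a summed level of 109 to 157 FPKM in CP and 26.6 to 58.4 FPKM in GZ. Of 8 cycling cell genes 7 were higher in GZ, with 53.0 to 90.6 FPKM in CP and 162 to 318 FPKM in GZ. Of 5 measured interneuron genes 1 was called in favour of CP and 4 in favour of GZ. Deep-layer and subplate genes were called in both directions, with 4 of 11 called in favour of CP and 2 in favour of GZ. FEZF2 (5.53-fold) and NR4A2 (2.85-fold) were among those higher in CP. The 2 higher in GZ were BCL11B (3.36-fold) and ST18 (5.21-fold).

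For the neurons in which PRPH is best known most markers were low. Of 9 measured peripheral sensory neuron genes 6 had a mean below 0 and were not tested, among them the sodium channel gene SCN10A. Above the means of PRPH were AVIL (mean 2.04 in CP and 2.01 in GZ) and SCN9A (2.92 and 3.63), and SCN9A was called higher in GZ. Their list summed to 14.4 to 16.5 FPKM in CP and 19.9 to 22.1 FPKM in GZ. The cholinergic genes CHAT and SLC18A3, the 2 measured of 9 motor and brainstem genes, lay below 0 in every library. In the remaining lists, 1 of 7 radial glia genes was called higher in CP and 3 in GZ. Calls were 1 and 2 of 5 oligodendrocyte genes, 1 and 0 of 4 astrocyte genes and 1 and 0 of 3 Cajal-Retzius genes. Of all genes tested 45.4% were called in either direction. None of 3 microglia, 7 meningeal or 2 choroid plexus and ependyma genes was called in limma, and 2 meningeal genes had an unadjusted p under 0.05.

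Read depth is unknown, since the values carry no read totals. Library medians ran from 1.82 to 1.87 on the log2 scale. Correlations of library profiles were 0.986 to 0.992 within a tissue and 0.967 to 0.980 between tissues, and no pair of libraries held identical values.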

How the data were processed

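The authors deposited gene levels as log2 FPKM after cqn normalization, a correction for GC content and length, per the labels. The submitters' processing notes list STAR and 2 build names (rheMac8, Mmul_8.0.1) without a role. The read counter and any use of strand: not given in the sources used here. Columns were matched to samples by title. Symbols came from a reference table and were found for 14700 of 22345 identifiers (65.8%). KRT8, HSPB1, TRIM2, GSK3A, MAPK8, EPPK1 and some other listed genes had no symbol match and are not analysed here. Hi-C, DNase and CTCF lists were not used, since no annotation of their build was at hand to tie them to genes. Sequences are not shown.

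The 13460 genes whose log2 values averaged at least 0 across libraries were fitted with limma 3.58.1 in R 4.3.3 (lmFit, eBayes with trend), CP minus GZ, without a block or pseudocount, with Benjamini-Hochberg adjustment over all of them. The procedure was tested on simulated data. Single values and within-library differences used exact two-sided permutation tests (scipy 1.17.1, Python 3.11.15). Shares are of 2 to the power of the deposited value.

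Named genes are the 5 members, up to 6 called genes and up to 2 not passing with the largest differences of each of 4 partner lists, the 3 nearest profiles per member and up to 3 genes of each of 14 marker lists, and some genes it covers are not reported here. The 5 members, although defined by name alone, and the lists and tests were chosen with earlier results of these data known. The comparison with the mean of the general neuron genes and the shares of the summed FPKM were added after seeing the values. Alternatives tried were no filter or a minimum mean of 1, eBayes without trend or robust, adding 1 FPKM before the log, centring on library medians, quantile normalization, a replicate block, and leaving libraries out.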

Additional observations from a re-analysis of the deposited data

How the results depend on the processing

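NEFL, NEFM and NEFH kept their direction and their call under every alternative run: NEFL differed by 3.02 to 4.08 on the log2 scale (limma adjusted p at most 0.0048), NEFM by 2.52 to 2.90 (at most 0.0031) and NEFH by 0.91, with a pseudocount of 1, to 1.79 (at most 0.023). NEFH and PRPH could not be tested under a minimum mean of 1. Leaving out single libraries gave 0.10 to 0.34 for INA, which passed at 0.34 without GZ replicate 2, and -0.62 to 0.18 for PRPH, whose sign turned at 0.18 and 0.14. Over the same omissions INA minus PRPH (0.41) ran from -0.04, without GZ replicate 3, to 0.86, without CP replicate 1. Without both libraries numbered 1 it was 1.09, and PRPH differed by -0.86. Without GZ replicate 2, 3 in place of 5 other intermediate filament genes were called. Transport and linker genes had 3 calls in place of 6 without trend, without GZ replicate 3 and without both libraries numbered 1. In the last of these, kinase and turnover genes had 3 calls in place of 5. Deviations of same-numbered CP and GZ libraries had r = -0.381, 0.299 and 0.347 across genes, against -0.524 to 0.2 for differently numbered ones. From 3 libraries per tissue these values cannot show or exclude a pairing, and the main fit used none. With the number as a replicate block, the 3 filament calls were kept (limma adjusted p = 0.00184, 0.000201 and 0.00529), INA differed by 0.22 (0.132) and PRPH by -0.19 (0.783), and TUBB3 was no longer called (0.0591). Under that block, kinase and turnover genes had 6 calls in favour of CP and 1 of GZ, in place of 5 and 0, and general neuron genes had 4 and 2, in place of 4 and 1. Unknown depth limits what can be said of the low genes NEFH and PRPH.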
